A study of Drosophila melanogaster with 24 samples.

Results

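The 9 genes described here carry or mark signalling between neurons: nSyb, Syt1, Syx1A, brp, cac, para, Sh, unc-13 and elav. They were taken by symbol, 9 of the 17768 genes in the deposited table, and all 9 were tested. RNA came from whole male Drosophila aged 1 to 7 days, kept at 25 °C, in 24 libraries. The injured groups were sampled 4 h after traumatic brain injury and the uninjured groups received none. The genotypes, all in a yw background, were homozygous for a deletion of Rel (Reldel/Reldel), heterozygous (+/Reldel) and wild type, with 4 libraries in each of the 6 groups. Rel encodes Relish, the NF-κB factor of the Imd immune pathway. The Rel deletion is present in every cell of the fly, and the labels do not say how the mutant line was matched to the wild type beyond the yw background, so other differences between the lines cannot be told apart from it. Nothing in the labels ties the 4 libraries of a group to separate cultures, so p-values measure only the spread between these libraries.

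At a chemical synapse, an action potential opens calcium channels at the release site, and calcium entry makes vesicles fuse with the membrane and release transmitter. Fusion is driven by SNARE proteins on the vesicle and the plasma membrane, timed by a calcium sensor and prepared by priming factors. Sodium and potassium channels shape the action potential that starts the process. These genes are expressed mainly in neurons, which are a small part of a whole fly. In a whole-fly library, fewer neurons and less RNA per neuron cannot be told apart.

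Libraries held 6543632 to 14660491 counts, and a member had 210 to 6960 counts in a library. Rel had 1 count in all 8 homozygous libraries together, against 273 to 1989 counts per library in heterozygotes and wild type. A pair of libraries stood apart. Homozygous injured library 1 (titled MH1) was the more distant: 729 genes lay over 2-fold above and 898 genes over 2-fold below the mean of its 3 companions, where the other 23 libraries had 42 to 276 genes above and 55 to 374 below. Wild-type injured library 4 held transcripts of females in a male sample, with a summed level of 248 CPM (counts scaled to a common library size) over 9 female and ovary markers against 2.07 to 9.32 CPM elsewhere; the yolk protein gene Yp1 was at 80.5 CPM there and at most 0.745 CPM in the others. Without that wild-type library, no count of members past the test changed in any comparison.

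Per kilobase of transcript, averaged over the 24 libraries, the levels ran from nSyb (76.7 CPM per kb) through Syt1 (47.4), unc-13 (33.2), Sh (17.1), brp (15.4), Syx1A (8.71), cac (8.18) and para (7.11) to elav (4.52). The order was nearly fixed: nSyb exceeded Syt1, Syt1 exceeded unc-13, unc-13 exceeded Sh, brp exceeded Syx1A and para exceeded elav in all 24 libraries. Sh was above brp in 21 of 24 and cac above para in 23. Syx1A was above cac in only 16 of 24, and these neighbours overlapped within their spread (SD 2.44 and 2.14 CPM per kb).

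Homozygous injured library 1 set the picture for the whole group of genes. Of the 9 genes, 8 had their highest level of all 24 libraries there. The excess over the mean of the other 3 homozygous injured libraries was 3.26-fold for para, the voltage-gated sodium channel, 2.73-fold for elav, an RNA-binding protein used as the standard neuron marker, and 2.71-fold for nSyb, the neuronal synaptobrevin of the vesicle membrane. It was 2.30-fold for Sh, the Shaker potassium channel, 2.26-fold for cac, the presynaptic calcium channel, and 2.24-fold for Syx1A, the plasma-membrane syntaxin. For brp, the Bruchpilot scaffold of the release site, it was 2.13-fold, and for Syt1, the calcium sensor of fusion, 2.07-fold. The smallest excess, 1.62-fold, was that of unc-13, the vesicle priming factor, for which this library ranked 3 of 24. Summed over the 9 genes, the library reached 2883 CPM, against 1080 to 1949 CPM in the other 23.

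**Figure D1:**
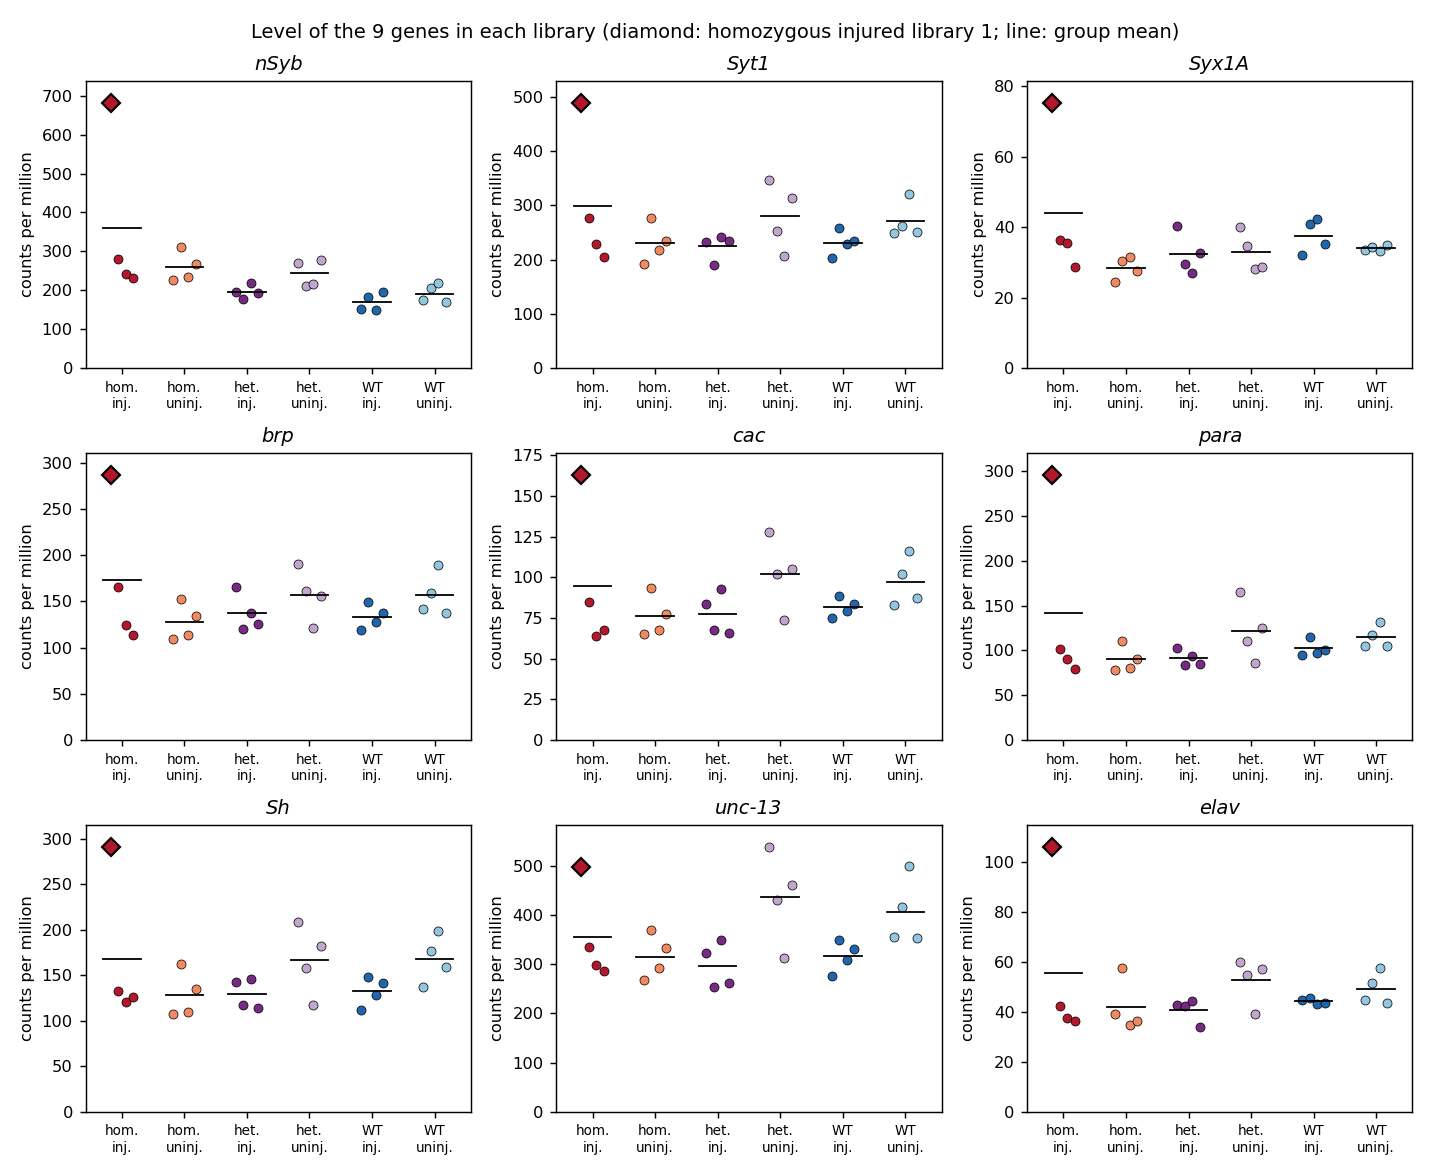
CPM (vertical axis, linear, from 0) of each of the 9 genes in the 24 libraries, by genotype and injury state; each point is 1 library, the line is the group mean, and the diamond is homozygous injured library 1. The diamond is the highest point in 8 of the 9 panels, but not in that of unc-13, and it lifts the homozygous injured mean above its 3 companions.

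Differences in this library varied with transcript length. In it, the median difference from its 3 companions was -0.10 (log2) for the shortest class of genes (123 to 662 bases) and -0.15 for genes of 946 to 1252 bases. The median was 0.14 for genes of 2708 to 3975 bases and 0.35 for those of 3979 bases or more, where the medians of the other 23 libraries ran from -0.24 to 0.17. The classes between 946 and 2049 bases lay below every other library's median, and the longest classes above. All 9 members are long, with count-weighted mean transcript lengths from 3084 bases (nSyb) to 15526 bases (para). Among the 2792 tested genes at least as long as nSyb, 8.78% were over 2-fold higher in this library, against 5.26% of all 13868 tested genes and 8 of the 9 members. The members' median difference was 1.18, beside 0.30 for those long genes and -0.01 for all genes. The cut at nSyb takes in genes shorter than every other member (Syx1A, the next shortest, has 4004 bases). The long genes are thus not matched to the members in length. Measured over all tested genes, 0.433% lay above para, 1.10% above nSyb and elav, and 12.8% above unc-13. The part of length in the members' excess was not tested further.

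**Figure D2:**
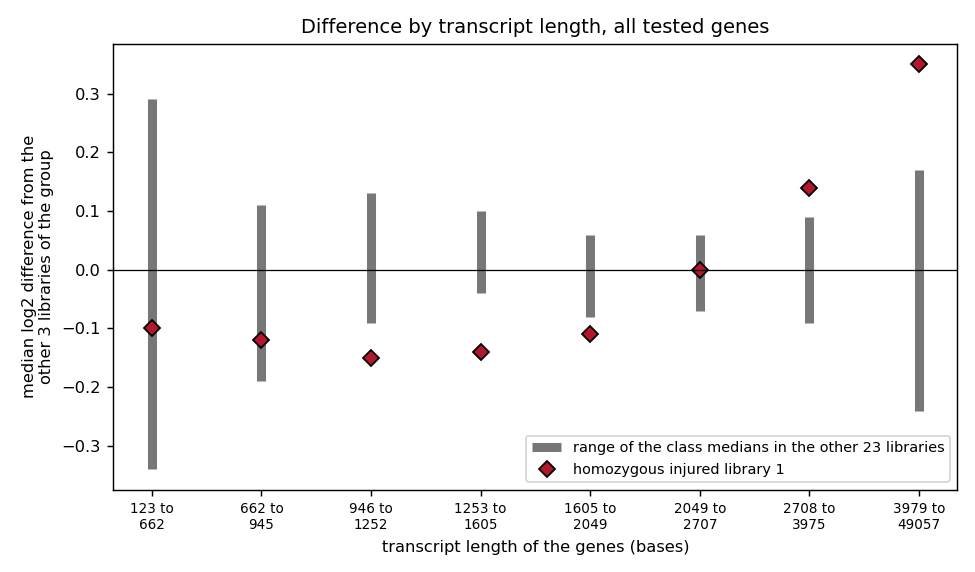
Median log2 difference of all tested genes from the other 3 libraries of the group (vertical axis), in 8 classes of transcript length in bases (horizontal axis); diamonds are homozygous injured library 1 and grey bars span the class medians of the other 23 libraries. The diamonds lie at -0.15 to 0.00 up to 2707 bases and at 0.14 and 0.35 in the longest classes; they lie below the grey bars from 946 to 2049 bases and above them in the longest classes.

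Summed over each of 4 lists, other neuronal genes were also at their highest in this library, though not every gene was. The summed CPM of vesicle cycle and release genes was 4860, against 2792 to 3976 in the other 23 libraries, with 24 of 31 genes above the mean of the 3 companions. That of voltage-gated and excitability channels was 4040 against 1969 to 3149, with 24 of 28 genes above. Neuronal identity and adhesion genes summed to 3744 CPM against 1838 to 2623, with 16 of 16 above, and transmitter loading genes to 820 CPM against 480 to 755, with 6 of 10 above. A list of 12 neuron markers, 6 of them members, summed to 3192 CPM against 1211 to 2072, and its 6 markers outside the members to 1172 CPM against 502 to 911. Glia markers (1266 CPM) ranked second of 24 and were at most 1277 CPM elsewhere. Markers of other tissues lay within the range of the other libraries, among them eye (7788 CPM, 4993 to 12326 elsewhere), muscle (14623 CPM, 11365 to 17785), testis (4112 CPM, 3620 to 5274), fat body (1051 CPM, 610 to 1561), hemocyte (280 CPM, 219 to 562) and female and ovary markers (4.65 CPM). Some of these lists lay outside the range of its 3 companions: gut markers summed to 1542 CPM against 2493 to 3817 CPM in the companions, and accessory gland markers to 9476 CPM against 4545 to 5515 CPM. Smaller gaps were seen for fat body markers, at 1051 CPM against 813 to 1048 CPM, and for female and ovary markers, at 4.65 CPM against 5.71 to 6.44 CPM. None of the neuron, glia or other somatic markers listed was at 0 in this library, and the part of tissue proportions was not tested.

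**Figure D3:**
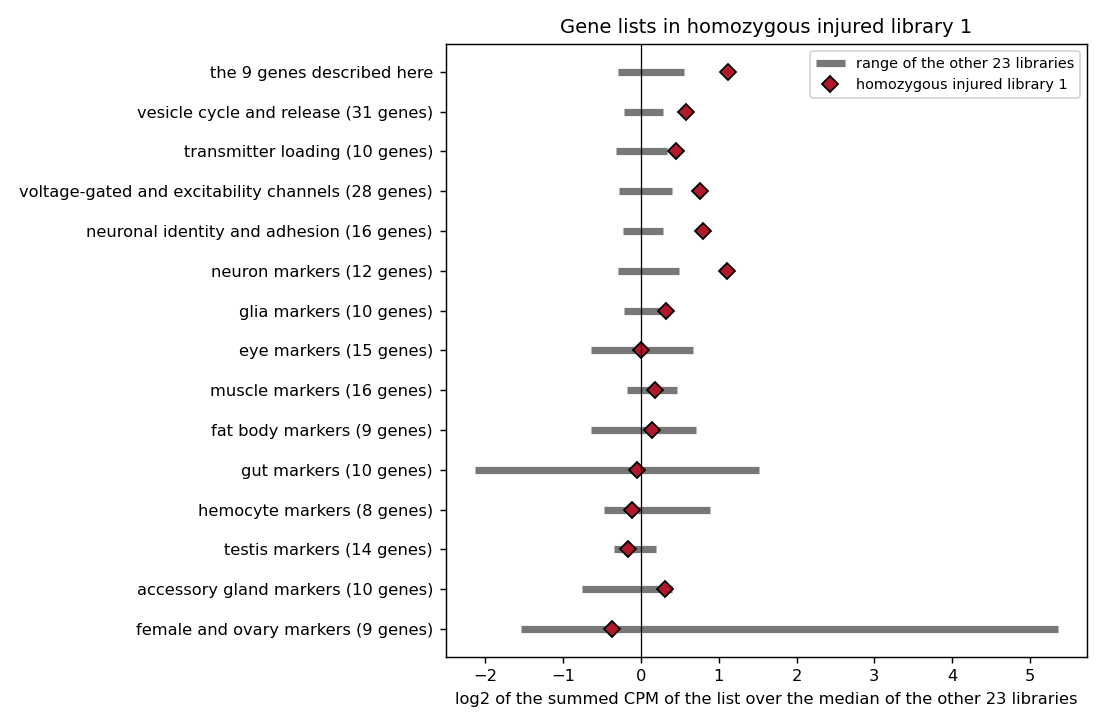
Summed CPM of each gene list in homozygous injured library 1 (diamond) and the range of the other 23 libraries (grey bar), as log2 of the ratio to the median of those 23 (horizontal axis). The 9 genes and the other neuronal lists lie to the right of their grey bars; the lists of eye, muscle, gut, fat body, hemocyte, testis, accessory gland and female markers lie within theirs.

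Injury in homozygotes gave fold changes above 0 for all 9 genes, but none passed the test, and the direction rested on homozygous injured library 1. With all libraries the log2 fold changes ran from 0.17 (unc-13) to 0.65 (para) with a median of 0.39 and SEs of 0.18 to 0.28. The quasi-likelihood F-test of edgeR, adjusted over 13868 genes, called 0 of 9 at an adjusted p under 0.05, where it called 5.86% of all genes; 3 of 9 had an unadjusted p under 0.05, as did 3112 genes in all. Without that library 4 of 9 values were above 0, from -0.12 (elav) to 0.23 (Syx1A), with SEs of 0.14 to 0.17, 0 of 9 called and 4.49% of all genes called. The median of all genes moved by no more than 0.01 between these fits.

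para shows what the library did to the group mean. It had 296, 102, 90.4 and 79.7 CPM in injured homozygotes, the first value being library 1, against 78.5, 110, 80.9 and 90.4 CPM in uninjured homozygotes. The other 3 injured libraries lay within the uninjured range. Its log2 fold change was 0.65 ± 0.28 (adjusted p = 0.169, edgeR) and 0.01 ± 0.16 without library 1 (adjusted p = 0.982). For elav, levels were 106, 42.1, 37.6 and 36.4 CPM in injured homozygotes, against 38.9, 57.6, 34.8 and 36.3 CPM in uninjured ones. Again the injured libraries other than the first lay within the uninjured range, and the log2 fold change was 0.39 ± 0.25 with library 1 and -0.12 ± 0.16 without it. Syx1A kept the largest value without library 1, 0.23 ± 0.14 (adjusted p = 0.434, edgeR). It had 75.2, 36.4, 35.4 and 28.6 CPM in injured homozygotes, against 24.4, 30.5, 31.4 and 27.7 CPM in uninjured ones; 2 of the 3 remaining injured libraries were above every uninjured one and 1 was within their range. Leaving out homozygous injured library 4 in place of library 1 made the test call Syx1A (0.78 ± 0.20, adjusted p = 0.0174) and para (0.86 ± 0.27, adjusted p = 0.0447). Calls rose over all genes too: that fit called 1582 genes, against 813 with all libraries.

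Injury in wild type and in heterozygotes gave values below 0 for most of the genes, with no call. In wild type, 1 of 9 values was above 0 (Syx1A, 0.15 ± 0.21) and the rest ran down to -0.36 ± 0.18 for unc-13 (adjusted p = 0.37, edgeR); 0 of 9 passed, where 3.79% of all genes did. In heterozygotes 0 of 9 values were above 0, from -0.55 (unc-13) to -0.02 (Syx1A), and again 0 of 9 passed, where 4.74% of all genes did. Unadjusted, p was under 0.05 for 0 of 9 in wild type and 1 of 9 in heterozygotes, and for 1951 and 2622 genes of all tested. With homozygous injured library 1 left out of the shared estimate of spread, SEs were 0.13 to 0.16, and p was under 0.05 for 2 of 9 in wild type and 7 of 9 in heterozygotes, and for 2378 and 3147 genes of all tested.

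unc-13 was the member with the lowest values after injury. It had 322, 254, 350 and 262 CPM in injured heterozygotes, against 539, 430, 313 and 462 CPM in uninjured ones, so that the groups overlapped through uninjured library 3. The log2 fold change was -0.55 ± 0.18 (adjusted p = 0.0795, edgeR). It passed in 4 of 30 alternatives: without homozygous injured library 1, which enters only the shared estimate of spread (adjusted p = 0.0325, 1 of 9 members and 6.68% of all genes called), without heterozygous uninjured library 3 (-0.68 ± 0.18, adjusted p = 0.0173), with DESeq2 (adjusted p = 0.0379) and with limma and library quality weights (adjusted p = 0.0195). Calls over all genes were also more than the 658 of the main fit. They were 1495 without heterozygous uninjured library 3, 952 with DESeq2 and 1059 with limma and library quality weights. In wild type unc-13 had 276, 350, 308 and 330 CPM when injured, against 355, 417, 500 and 354 CPM when uninjured. Here every injured library was below every uninjured one, a separation that 4.54% of all genes showed in that direction, and the test did not call it.

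Set against wild type, the injury response of homozygotes gave differences above 0 for all 9 genes, from 0.47 (Syx1A) to 0.82 (para) on the log2 scale with SEs of 0.25 to 0.40, but edgeR called 0 of 9 (adjusted p = 0.934 for each). It called 0% of all genes, with 647 at an unadjusted p under 0.05, 5 members among them; over all genes DESeq2 called 3 and limma with library quality weights 5, none of them members. Without homozygous injured library 1 the differences were 0.04 (elav) to 0.33 (unc-13) with SEs of 0.19 to 0.23, and 0 of 9 had an unadjusted p under 0.05. For heterozygotes minus wild type the differences ran from -0.24 (para) to 0.04 (brp) with SEs of 0.25 to 0.39, and 0 of 9 members and 0% of all genes passed (363 genes at an unadjusted p under 0.05, and 0 genes called by DESeq2 and by limma).

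**Figure D4:**
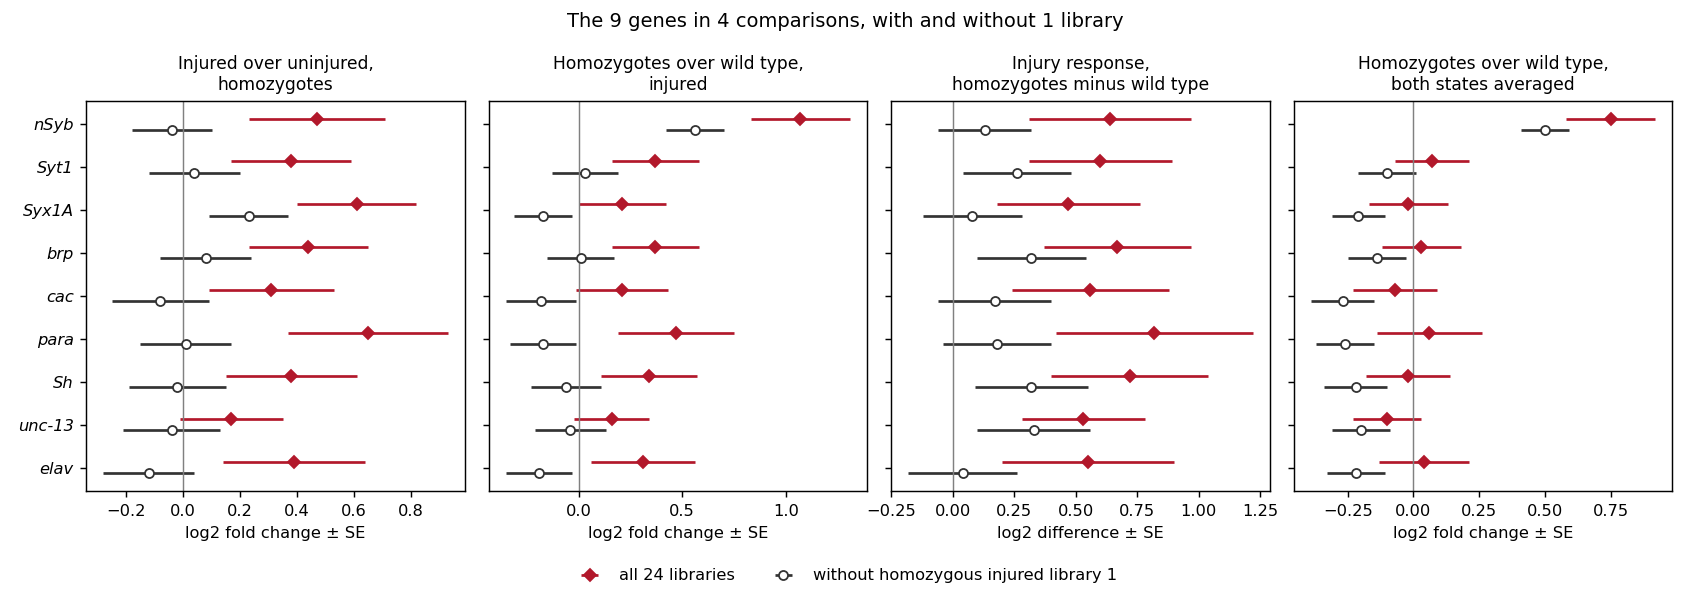
Log2 fold change or difference ± SE (horizontal axis) of the 9 genes for injury in homozygotes, injured homozygotes over injured wild type, the injury response of homozygotes minus wild type, and homozygotes over wild type averaged over both states, from all 24 libraries (diamonds) and without homozygous injured library 1 (open circles). Leaving out the library moves every gene to the left in these comparisons; nSyb then stays at 0.56 and 0.50 in the injured and averaged comparisons with wild type, where the other 8 lie at -0.27 to 0.03, and is at 0.13 in the difference of injury responses, where unc-13 is highest at 0.33.

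nSyb differed between genotypes in a way that did not rest on that library. In injured flies it had 681, 280, 243 and 232 CPM in homozygotes, 195, 177, 218 and 192 CPM in heterozygotes and 153, 184, 150 and 195 CPM in wild type. Every homozygous library was above every wild-type one, which 3.90% of all genes showed in that direction. The difference of homozygotes from wild type was 1.07 ± 0.24 on the log2 scale (adjusted p = 0.00786, edgeR), the only member of 9 to pass, where 4.28% of all genes passed. Without library 1 it was 0.56 ± 0.14 (adjusted p = 0.0192), again the only call of 9, with 3.81% of all genes called. It passed in 29 of 30 alternatives and failed with only the injured homozygous and wild-type libraries in the fit (1.08 ± 0.32, adjusted p = 0.165 by edgeR). In the authors' deposited table, which divides wild type by homozygotes, nSyb was at -1.10 with an adjusted p of 0.00828, and 4.11% of its genes were under 0.05; no other member was under 0.05 in any of the authors' 7 deposited gene comparisons.

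In uninjured flies nSyb had 226, 311, 233 and 267 CPM in homozygotes, 271, 212, 215 and 277 CPM in heterozygotes and 174, 205, 218 and 170 CPM in wild type. The homozygous and wild-type libraries again did not overlap, as for 4.97% of all genes in that direction, but the difference of 0.43 ± 0.24 did not pass (adjusted p = 0.48, edgeR), nor did it without homozygous injured library 1 (0.43 ± 0.13, adjusted p = 0.0515). Of the 9 members 0 passed in this comparison, where 3.96% of all genes did. Averaged over both injury states, a contrast added after the values were seen, homozygotes exceeded wild type by 0.75 ± 0.17 (adjusted p = 0.00406, edgeR), and by 0.50 ± 0.09 without library 1 (adjusted p = 0.000863, with 10.2% of all genes called). nSyb was the only member of 9 to pass it, where 9.11% of all genes did, and it passed in all 30 alternatives. For heterozygotes the averaged difference from wild type, 0.27 ± 0.17, was not called (adjusted p = 0.552); 0 of 9 members and 1.49% of all genes did.

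With edgeR, none of the other 8 genes passed in a comparison of homozygotes with wild type. In uninjured homozygotes their log2 values against wild type were -0.38 (Sh) to -0.24 (Syt1 and elav), all below 0 and none called. Unadjusted p (edgeR) was under 0.05 for 0 of 9 members there. With homozygous injured library 1 left out of the shared estimate of spread it was so for 5 of 9, nSyb among them. Over all genes these numbers were 1823 and 2185. Syx1A alone separated the libraries, at 24.4, 30.5, 31.4 and 27.7 CPM in homozygotes against 33.4, 34.3, 33.3 and 34.9 CPM in wild type, as 5.42% of all genes did in that direction. In injured homozygotes their values were 0.16 (unc-13) to 0.47 (para), and -0.19 (elav) to 0.03 (Syt1) without library 1. Averaged over both states they ran from -0.10 (unc-13) to 0.07 (Syt1), and from -0.27 (cac) to -0.10 (Syt1) without library 1. In that averaged comparison limma with library quality weights called cac (-0.34 ± 0.10, adjusted p = 0.0133), para (-0.29 ± 0.10, adjusted p = 0.0427) and elav (-0.29 ± 0.09, adjusted p = 0.0252) lower, where edgeR gave -0.07, 0.06 and 0.04. Over all genes that limma fit called 2877, against 1263 by edgeR. Heterozygotes differed from wild type by -0.05 (Syx1A) to 0.10 (unc-13) uninjured and by -0.22 (Syx1A) to 0.04 (brp) injured in these 8 genes; 0 of 9 members passed in either, where 0.498% and 0.296% of all genes did (1323 and 820 genes at an unadjusted p under 0.05, and 0 members in each).

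nSyb was also set against the sum of the other 8 in the same library, a ratio chosen after the values were seen and given as a description. It was 30.9, 23.7, 24.3 and 24.6% of that sum in injured homozygotes and 25.6, 24.8, 24.6 and 25.0% in uninjured ones. Heterozygotes had 17.2, 19.6, 19.3 and 20.1% when injured and 16.2, 16.3, 21.8 and 19.4% when uninjured. Wild type had 16.0, 15.4, 14.2 and 17.7% when injured and 15.2, 15.5, 14.1 and 14.5% when uninjured. The 8 homozygous libraries lay above all 16 others, while heterozygotes and wild type overlapped through the lowest heterozygous libraries; within a genotype, injured and uninjured libraries overlapped in heterozygotes, homozygotes and wild type.

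**Figure D5:**
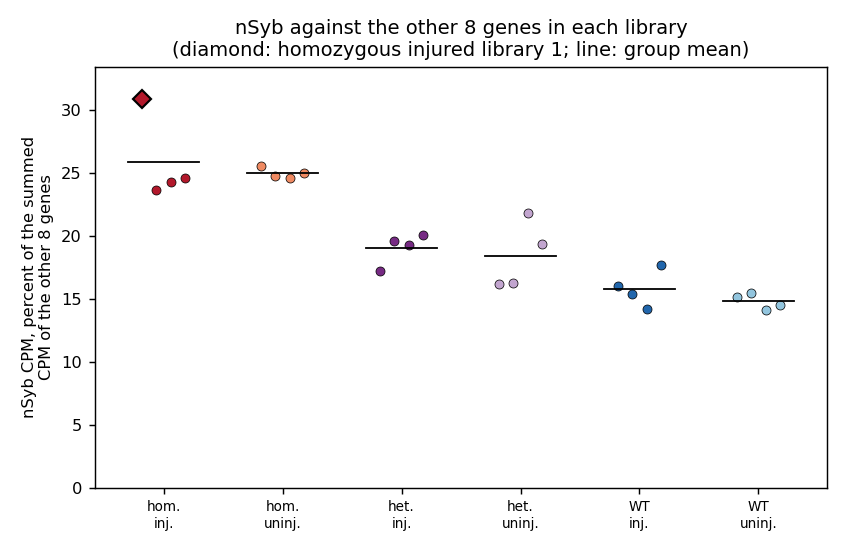
nSyb CPM as a percent of the summed CPM of the other 8 genes (vertical axis, from 0) in each library, by genotype and injury state; the line is the group mean and the diamond is homozygous injured library 1. The homozygous libraries lie at 23.7 to 30.9%, the heterozygous ones at 16.2 to 21.8% and the wild-type ones at 14.1 to 17.7%.

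Across libraries, 7 of the 9 genes followed each other closely, and nSyb and Syx1A less so. Against the mean of the other 8, Pearson r of log2(CPM + 0.5) in the 23 libraries without homozygous injured library 1 was 0.840 to 0.949 for those 7, 0.265 for nSyb and 0.318 for Syx1A. With that library included, it was 0.834 to 0.976 for the 7, 0.667 for nSyb and 0.695 for Syx1A. Both values of a point come from the same library and share its scaling. The median r over the 36 pairs was 0.85 (0.45 to 0.97) in 24 libraries and 0.86 in the 23 without homozygous injured library 1, where the lowest pair was nSyb with Syx1A at -0.30 and the highest cac with unc-13 at 0.96. Among genes outside the members with a mean of at least 10 CPM, those most like the members' mean over 24 libraries were Rbp6 (r = 0.983), pros (0.975), scrt (0.972), qvr (0.971), Frq1 (0.970), sif (0.970), Nckx30C (0.966), Sap47 (0.966), fne (0.965) and SK (0.964). Over the 23 libraries, Rbp6 (0.966) and pros (0.962) again came first, followed by CG32017 (0.958), CG42450 (0.954), Ac3 (0.953), qvr (0.953), Snap25 (0.950), Cadps (0.948), CG1909 (0.948) and futsch (0.947). These correlations describe the libraries and were not tested.

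The 85 other genes of the pathway stand in 4 lists. After injury in homozygotes 4 rose and 0 fell, where 5.86% of all genes were called, and 79 of 85 values were above 0. Without library 1, 3 rose and 0 fell, where 4.49% of all genes were called, and 60 were above 0. Rgk1, a small GTPase of the RGK family, rose after injury in every genotype: in homozygotes to 50.8 ± 7.96 CPM, against 14.2 ± 0.856 CPM uninjured (SD, n = 4 each; log2 fold change 1.84 ± 0.14, adjusted p = 4.53e-08 by edgeR), in heterozygotes by 1.26 ± 0.14 and in wild type by 1.57 ± 0.14. Syb, the synaptobrevin paralogue expressed beyond neurons, rose too, to 146 ± 25.3 CPM in injured homozygotes against 91.1 ± 2.18 CPM in uninjured ones (0.68 ± 0.10), by 0.60 ± 0.10 in heterozygotes and by 0.51 ± 0.10 in wild type. Snap24, a paralogue of the SNARE protein Snap25, rose in homozygotes by 0.65 ± 0.14 (adjusted p = 0.00633, edgeR), and by 0.46 without library 1 (adjusted p = 0.0251); it passed in 29 of 30 alternatives and failed with only the compared groups in the fit. ple, the tyrosine hydroxylase of dopamine synthesis, was called in homozygotes (0.91 ± 0.24, adjusted p = 0.0252) and lost the call without library 1 (0.53, adjusted p = 0.153), passing in 25 of 30 alternatives.

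In the other genotypes, injury called 3 of the 85 genes higher and 0 lower in wild type and 2 higher and 0 lower in heterozygotes, where 3.79% and 4.74% of all genes were called, with 16 and 11 of the 85 values above 0. Without homozygous injured library 1 there were 4 higher and 0 lower in wild type, and 2 higher and 1 lower in heterozygotes. Over all genes, that fit called 689 genes in wild type and 934 genes (6.68%) in heterozygotes. The wild-type call beside Rgk1 and Syb was Irk1, an inward-rectifier potassium channel (0.57 ± 0.16, adjusted p = 0.0426), which passed in 12 of 30 alternatives. Irk1 was also higher in homozygotes than in wild type when uninjured, at 50.8 ± 11.4 CPM against 27.0 ± 3.72 CPM (0.92 ± 0.16, adjusted p = 0.000579, edgeR), and passed in all 30 alternatives. Ca-alpha1T, a T-type calcium channel, was lower in uninjured homozygotes (-0.64 ± 0.17, adjusted p = 0.0327), in 25 of 30 alternatives. These were the only calls of the 85 there, 1 higher and 1 lower, where 3.96% of all genes were called. Leaving out homozygous injured library 1 gave 1 higher and 3 lower. Over all genes, leaving out each library in turn gave 407 to 698 calls in this comparison, against 549 with all libraries. Averaged over both injury states, where edgeR called 9.11% of all genes, 2 of 85 were higher in homozygotes. They were Irk1 (0.66 ± 0.11) and the potassium channel Shal (0.38 ± 0.10, adjusted p = 0.016 by edgeR). Nsf2 was lower (-0.25 ± 0.08, adjusted p = 0.0466 by edgeR, passing in 7 of 30 alternatives). With library 1 left out, 2 were higher and 3 lower, where 10.2% of all genes were called. The test of injured homozygotes against wild type called 0 of 85, where 4.28% of all genes were called. Those of heterozygotes against wild type, uninjured, injured or averaged, called 0 of 85. Of all genes they called 0.498%, 0.296% and 1.49%. Both differences of injury response called 0 of 85 and 0% of all genes. For homozygotes minus wild type 82 of 85 values were above 0, with list medians of 0.29 to 0.42 (log2). Without homozygous injured library 1 it was 81 of 85, with list medians of 0.17 to 0.20. For heterozygotes minus wild type 21 of 85 values were above 0. These directions were not tested.

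At the level of transcripts, whose counts RSEM estimates by sharing out reads among overlapping models, 7 of the 9 genes drew most of their counts from 1 transcript in these flies. It was para-RBG (99.4% of the gene's counts over all libraries), elav-RD (99.6%), Syx1A-RC (89.5%), brp-RM (85.6%), cac-RI (82.8%), Sh-RB (79.0%) and nSyb-RG (68.6%). For Syt1 and unc-13 the leading transcript held less, Syt1-RI 41.3% and unc-13-RC 30.8%. In homozygous injured library 1 the shares of Syt1-RI (62.4%), Syx1A-RC (99.2%) and brp-RM (94.6%) were the highest of the 24 libraries. The count-weighted mean transcript length of Syt1 (5595 bases, 5217 to 5449 elsewhere) and of Syx1A (4151 bases, 3820 to 4132 elsewhere) was likewise the highest of 24 there, while that of brp (9459 bases) ranked 23rd.

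A pair of transcripts, singled out after their values were seen, differed by genotype, and no test was made. nSyb-RK held 5.95 ± 0.799% of the gene's counts in injured homozygotes, 5.68 ± 2.01% in uninjured homozygotes, 9.05 ± 3.04% in injured heterozygotes, 10.3 ± 1.48% in uninjured heterozygotes, 14.4 ± 3.73% in injured wild type and 13.7 ± 2.78% in uninjured wild type (SD, n = 4 each). Homozygous libraries lay at 3.09 to 7.78% and wild-type ones at 11 to 19.9%, without overlap. Of 17953 transcripts with a mean of at least 10 counts in genes of several transcripts, 0.590% separated these 16 libraries in that direction and 0.490% in the other. In CPM, nSyb-RK was at 20.2 ± 8.89 in injured and 15.1 ± 6.69 in uninjured homozygotes, against 24.3 ± 5.05 in injured and 26.2 ± 5.19 in uninjured wild type, while nSyb-RG was at 255 ± 167 and 186 ± 27.5 in the homozygotes against 109 ± 17.2 and 128 ± 20.1 in wild type. cac-RI held 90.4 ± 4.80% of cac counts in injured and 92.3 ± 5.44% in uninjured homozygotes, against 76.7 ± 9.27% in injured and 73.3 ± 3.0% in uninjured wild type. Its homozygous libraries lay at 86.2 to 99.1% and its wild-type ones at 63.3 to 84.2%, again without overlap, as for that 0.490% of transcripts, with heterozygotes from 72.9 to 98.5%.

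On genome build dm6, with coordinates counted from 1, the genes are spread over the chromosomes. nSyb is at 3L:1630348-1637752, Syt1 at 2L:2772327-2799979, Syx1A at 3R:24101600-24105763 and unc-13 at 4:867824-912331, all on the minus strand, and brp is at 2R:9503765-9541565 on the plus strand. On the X chromosome, all on the minus strand, lie elav at 509235-523226, cac at 11931280-11985087, para at 16455027-16533096 and Sh at 17924307-18063247. The annotation places no other gene over nSyb, brp or cac. Syx1A lies within the span of eIF4EHP on the same strand, elav overlaps lncRNA:enrr on the same strand and arg on the other, and para overlaps Cnx14D on the same strand. Sh shares its span with CG12672 on the same strand and with CG15373 and CG6867 on the other. Syt1 overlaps lncRNA:CR43821, and unc-13 overlaps asRNA:CR43425, asRNA:CR44029 and the pseudogene CR43361, all antisense. Annotated transposable elements also overlap Syt1, para, Sh and unc-13 and are not named here. Those over unc-13 lie on both strands. Whether counting used strand is not given in the sources used here, and strand cannot separate genes that overlap on the same strand. The counts of the 6 overlapped genes are thus less certain.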

How the data were processed

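Whole-fly RNA from 24 libraries was extracted with a Qiagen RNeasy Plus kit, and 1 µg was made into libraries with an Illumina TruSeq RNA kit, per the labels' protocols. The authors deposited RSEM expected counts per gene and per transcript, and, in tables of their own comparisons, log2 fold changes beside adjusted p-values. CASAVA, STAR 2.4.2a, RSEM 1.2.22, edgeR 3.10.5 and build dm6 are named per the submitters' processing notes; annotation, strand and filters are not given in the sources used here. The deposited gene counts held 0 values that were not whole.

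Samples were grouped by the labels' genotype and injury status. Gene counts were tested with edgeR 4.0.16 in R 4.3.3: filterByExpr (13868 of 17768 genes kept), TMM factors, 1 mean per group over all 24 libraries (18 residual degrees of freedom), a two-sided quasi-likelihood F-test and Benjamini-Hochberg adjustment over all genes tested, called under 0.05. Each SE was the absolute log2 fold change divided by the root of its F statistic. CPM use effective library sizes, so 3 counts are 0.205 to 0.458 CPM; log2 levels add 0.5. Transcript lengths and coordinates are from Ensembl release 115. Alternatives were DESeq2 1.42.0 (test and size factors), limma 3.58.1 with sample quality weights, no filter, only the compared groups, a replicate block and leaving out each library. The fit was tested on simulated counts, with the outcome not given here. The simulation held no library set apart like homozygous injured library 1, so it cannot speak to that setting. The labels do not say whether a replicate number marks samples handled together, and the main fit used no pairing. Of 60 same-numbered pairs, 23 had deviations correlated above 0.1. In 1 of 15 pairs of groups, heterozygous injured with wild-type uninjured, all 4 did (0.14 to 0.40), and that pair was not compared directly. These correlations cannot show that pairing was absent. No 2 libraries were identical. All members are named in every comparison, and up to 4 called genes per comparison from the 4 pathway lists by smallest adjusted p. The members and lists were chosen with earlier results of these data known. Of the listed symbols, CAPS and stol had no match and are not analysed here.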

Additional observations from a re-analysis of the deposited data

Results flagged for a closer look

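In homozygous injured library 1, 5 of the 9 genes lay far from the other 3 libraries of their group by Dixon's ratio (the gap to the nearest value over the range of 4 libraries, past its 95% critical value): Sh at 291 CPM (ratio 0.924), elav at 106 CPM (0.918), para at 296 CPM (0.896), nSyb at 681 CPM (0.895) and Syx1A at 75.2 CPM (0.833). The other 4 genes had ratios of 0.699 (brp) to 0.791 (cac) there. The remaining case was Syt1, low at 189 CPM in heterozygous injured library 2 (0.842). In all, 6 of 54 sets of 4 libraries were past the critical value, and 5 of the 6 lie in 1 library. Chance gives about 1 in 20 for independent sets. These 54 are not independent, because the genes share libraries and most of them follow each other across libraries.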

How the results depend on the processing

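Of the 9 members, the number called was 0 or 1 in each comparison. For injury in heterozygotes it was 0, and 1 (unc-13) with DESeq2 and with limma quality weights, and 0 to 1 on leaving out each library in turn (1 without heterozygous uninjured library 3 or homozygous injured library 1). For injury in homozygotes it was 0, and 0 to 2 on leaving out each library (2 without homozygous injured library 4). For injured homozygotes against wild type it was 1 (nSyb), and 0 with only the compared groups in the fit. Averaged over both states, a contrast chosen after seeing the data, homozygotes against wild type gave 1, and 4 with limma quality weights, where para (-0.29 ± 0.10, adjusted p = 0.0427) and elav (-0.29 ± 0.09, adjusted p = 0.0252) were called lower, against 0.06 and 0.04 in the edgeR fit, and cac was called at -0.34 ± 0.10 (adjusted p = 0.0133). That weighting gave homozygous injured library 1 the lowest weight of the 24 (0.152) and homozygous injured library 3 the highest (5.19). Its estimates for injured homozygotes thus lean most on library 3. The fit with a replicate block changed no member's call (nSyb in injured homozygotes 1.02 ± 0.25, adjusted p = 0.0198). No other count of members changed. The range of calls over all genes was wide: limma quality weights against edgeR gave 989 against 525 for injury in wild type, 1059 against 658 in heterozygotes, 2285 against 813 in homozygotes, 1225 against 549 for uninjured and 1842 against 594 for injured homozygotes against wild type, 2877 against 1263 averaged, and 125 against 69 for uninjured and 70 against 41 for injured heterozygotes against wild type; DESeq2 gave 142 and 72 in these last comparisons. With only the compared groups in the fit, 278, 353, 284, 33 and 21 genes were called for injury in heterozygotes, injury in homozygotes, injured homozygotes, uninjured heterozygotes and injured heterozygotes against wild type. Leaving out 1 library gave 302 (wild-type uninjured library 4) to 689 genes for injury in wild type, 380 (heterozygous uninjured 1) to 1495 (heterozygous uninjured 3) in heterozygotes, 484 (homozygous uninjured 4) to 1582 (homozygous injured 4) in homozygotes, and 33 (wild-type uninjured 2) to 150 (heterozygous uninjured 3) for uninjured and 24 (heterozygous injured 2) to 57 for injured heterozygotes against wild type. Why these counts moved was not tested. Size factors in place of TMM and a pseudocount of 2 moved the members' mean deviation in homozygous injured library 1 to 1.10 and 1.08, beside 1.09. Leading transcript shares stayed within 1 SD of the group mean in all 216 cases on leaving out a library. Leaving out a single library of a group cannot move its mean that far, so this outcome was fixed in advance. Members' SEs in a comparison of 2 groups were 0.18 to 0.28 with all libraries and 0.13 to 0.17 without homozygous injured library 1.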
